A study of Mus musculus with 6 samples.

Results

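The genes described here encode the enzymes that build cholesterol and fatty acids, with the proteins that regulate them. They were taken as the rows of the raw count table whose symbol matches 1 of 36 listed names, and all 36 were found among the 14831 genes of that table. The sterol arm holds 24 of them and the fatty acid arm holds 12. The RNAseq data come from immortalized mouse pancreatic fibroblasts of mixed strain, grown to confluence in DMEM with calf serum and antibiotics, with 3 libraries labelled WT and 3 labelled KO, each from its own well. The KO genotype is given as Gli2-/-;Gli3-/-, and GLI2 and GLI3 are transcription factors that carry the Hedgehog (HH) signal. Such lines were derived by outgrowth from the adult pancreas of mice with floxed Gli alleles. They were infected after immortalization and sorted by flow cytometry, and recombination in them was checked by qPCR and western blot. Both kinds of line received an adenovirus carrying eGFP under the CMV promoter, to which the controls had a dsRed lentivirus added and the KO lines an adenovirus with CMV-driven Cre, so the viruses given differ between the groups along with the genotype. The labels name separate wells and do not say whether the wells of a group hold 1 line or several, so the p-values measure the spread between wells.

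Cholesterol is made in the cytosol and the endoplasmic reticulum from acetyl-CoA, through mevalonate, farnesyl diphosphate, squalene and lanosterol. Fatty acids are made from the same acetyl-CoA and are then lengthened and desaturated. Both routes are switched on by SREBP transcription factors, which SCAP escorts from the endoplasmic reticulum to the Golgi for cleavage when sterols are scarce, while INSIG proteins hold SCAP back when sterols are plentiful. SREBP2, encoded by Srebf2, acts mainly on the sterol genes and SREBP1, encoded by Srebf1, mainly on the fatty acid genes, and many of their targets carry a binding site for NF-Y near the sterol regulatory element.

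The promoters of Hmgcs1 and of the members with the largest changes are shown first. Each is the stretch of 250 bases upstream of the RefSeq start on GRCm38.p6, in the direction of the gene, with capitals for CCAAT (the NF-Y box), TCACNCCAC (the core of a sterol regulatory element) and CACGTG (an E-box), each sought on both strands, so that CCAAT on the reverse strand reads ATTGG. Hmgcs1 lies at chr13:119690101-119690350 (+), Insig1 at chr5:28071162-28071411 (+), Cyp51 at chr5:4104698-4104947 (-) and Acss2 at chr2:155517793-155518042 (+). Hmgcs1 was chosen for its match to TCACNCCAC, and the other promoters were chosen after the expression values had been seen. None of those others holds these exact letters, and other spellings of such an element were not sought. CCAAT, found in all of these promoters, is common among other genes too, as given below. GENCODE M21 places the starts of Insig1, Cyp51 and Acss2 further upstream, so the ends of their printed stretches lie within the GENCODE genes.
Hmgcs1: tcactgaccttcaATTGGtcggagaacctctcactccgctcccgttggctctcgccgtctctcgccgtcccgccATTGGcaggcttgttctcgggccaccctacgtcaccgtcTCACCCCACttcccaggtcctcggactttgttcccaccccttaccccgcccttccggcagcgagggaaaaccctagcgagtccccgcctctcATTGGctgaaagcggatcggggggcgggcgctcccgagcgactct
Insig1: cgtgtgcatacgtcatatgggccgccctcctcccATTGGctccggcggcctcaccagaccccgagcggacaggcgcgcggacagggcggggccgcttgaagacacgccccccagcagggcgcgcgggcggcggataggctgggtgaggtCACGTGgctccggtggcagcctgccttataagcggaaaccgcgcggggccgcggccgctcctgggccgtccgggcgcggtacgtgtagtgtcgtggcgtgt
Cyp51: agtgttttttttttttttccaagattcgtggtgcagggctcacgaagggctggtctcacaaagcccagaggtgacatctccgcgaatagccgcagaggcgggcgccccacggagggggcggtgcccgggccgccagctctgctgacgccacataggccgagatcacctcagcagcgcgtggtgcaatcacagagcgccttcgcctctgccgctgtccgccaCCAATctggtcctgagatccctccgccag
Acss2: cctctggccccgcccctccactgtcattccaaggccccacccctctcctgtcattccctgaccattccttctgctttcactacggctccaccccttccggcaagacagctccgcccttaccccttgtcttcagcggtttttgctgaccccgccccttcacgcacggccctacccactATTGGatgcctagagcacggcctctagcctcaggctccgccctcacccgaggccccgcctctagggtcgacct

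RefSeq windows that run from 250 bases before to 50 bases after the start were at hand for 29 of the 36 members. None was at hand for Sqle, Fdft1, Fdps, Stard4, Scd1, Scd2 and Fads1. CCAAT was found in windows of 24 of these 29, which are 18 of 20 in the sterol arm and 6 of 9 in the fatty acid arm. It was found for 82.8% of the members with a window, for 43.4% of the 9996 genes tested that have a window, and for 41.1% of all 27025 genes with one. Of the single windows, 64.1% of the 39 of the members and 37.4% of all 32851 held it, so part of the first contrast lies in the number of windows per gene. Among the members, the exact letters TCACNCCAC were found for Hmgcs1 alone, where they begin 137 bases before the start and lie 34 bases from the nearest CCAAT. They were found for 1.4% of the tested genes with a window and for 1.44% of all genes with one. CACGTG was found for 6 of the 29 (20.7%), for 11.8% of the tested genes with a window and for 8.09% of all genes with one. The letters GACCACCCA, which GLI proteins are known to bind, were found for 0 of the 29, for 0.28% of the tested genes with a window and for 0.289% of all genes with one. A match of letters is not a measured binding site. Only these exact letters were sought, so a site spelled otherwise within a window was not counted. A window without a match also says nothing of sequence further away.

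The libraries labelled WT held 31728420 to 33905521 counts on genes and those labelled KO held 32781730 to 41035931, and the members had between 165 (Acss2) and 71617 (Scd2) counts in a library. The targeted genes check the labels, and the counts of Gli2 and Gli3 went against them. Gli2 had 809, 944 and 868 counts in the wells labelled WT, against 1932, 2316 and 1926 in the wells labelled KO, and Gli3 had 392, 416 and 398 against 1434, 1637 and 1404. These counts cover whole genes, and they do not show whether the floxed exons were absent. For its lines the paper reports a check of Gli deletion by qPCR and western blot, which is evidence apart from these counts. Of the HH target genes, named here after their values were seen, Gli1 had 40, 50 and 37 counts under the WT label and 4, 10 and 13 under the KO label, a log2 fold change of -2.40 ± 0.31 (SE; adjusted p = 2.30e-05 by edgeR). Ptch1, another target, went from 235 ± 10.3 to 81.8 ± 4.61 CPM (SD, n = 3 each), a value that fell by 1.53 on the log2 scale. Both were lower under the KO label. The paper reports that its KO lines did not respond to HH stimulation, but also that they kept a baseline level of Gli1. Because the counts of Gli2 and Gli3 went against the labels, labelled WT and labelled KO are used as names of the groups. Every direction below is that of the labels, and no library was moved. Over the 9 of 12 fibroblast markers that were tested, summed levels were 57400 to 58130 CPM (counts scaled to a common library size) in the group labelled WT. They were 47300 to 49660 CPM in the group labelled KO. Col1a1, Col1a2, Col3a1 and Fn1 made up most of these sums. S100a4 had a mean of only 2.31 CPM under the WT label and 7.36 under the KO label, and Pdpn, Thy1 and Fap were not tested. In bulk RNA, a smaller share of cells with a transcript and less of it per cell cannot be told apart.

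Most cholesterol and fatty acid synthesis genes were lower in the libraries labelled KO, by modest amounts. By the quasi-likelihood test of edgeR, with adjustment by Benjamini-Hochberg over 14289 genes, 29 of the 36 members passed an adjusted p under 0.05 in the lower direction, where 28.8% of all genes tested did. In the higher direction 4 members passed, where 29.9% of all genes did. With a change of at least 1.5-fold asked for as well, which is what "called" means here, only Insig1, Cyp51 and Acss2 remained, all lower; 6.1% of all genes were called lower, so this count of 3 in 36 was close to the background. No member was called higher, where 11.6% of all genes were. The groups did not overlap for 33 of the 36 members, a pattern seen for 64.2% of all genes.

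The sterol arm had a median log2 fold change of -0.26, with 20 of its 24 members lower and 2 higher past the test. The fatty acid arm had a median of -0.20, with 9 of its 12 members lower and 2 higher. The median over all genes tested was 0.0020. The summed level of the sterol arm was 3944, 3717 and 3666 CPM in the wells labelled WT, against 2949, 2909 and 2870 in the wells labelled KO, with means that differed by 22.9%. That of the fatty acid arm was 4892, 4639 and 4592 against 4200, 4073 and 4099 CPM, with means that differed by 12.4%. Genes with many counts weigh most in such sums. Scd2 alone had means of 2029 and 1733 CPM in the fatty acid arm. In the sterol arm the regulators held 1225 to 1266 CPM under the WT label and 932 to 945 under the KO label. Neither sum overlapped between the groups. Whether the arms differ from each other was not tested.

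**Figure D1:**
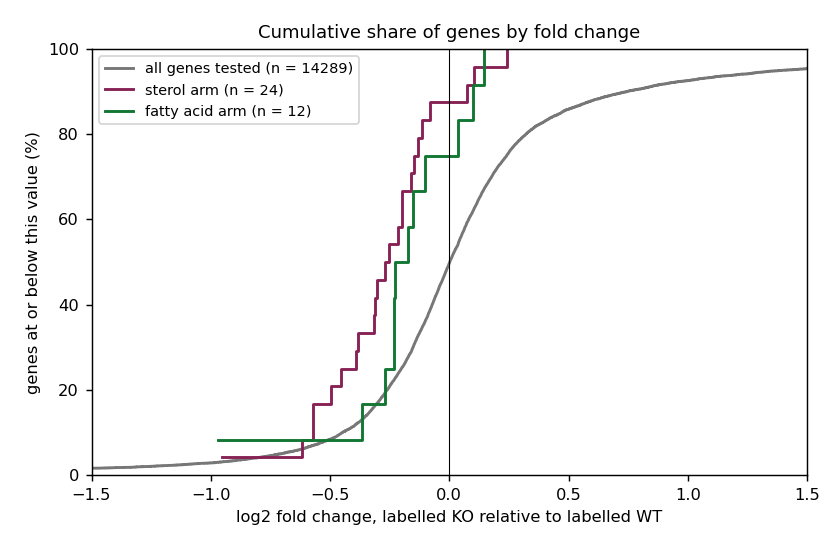
Cumulative share of genes (vertical axis, %) at or below each log2 fold change of labelled KO relative to labelled WT (horizontal axis, shown from -1.5 to 1.5) for the 24 sterol members, the 12 fatty acid members and the 14289 genes tested. Through the middle of the range both arms lie to the left of the curve of all genes, and neither reaches the large changes in the tails of that curve.

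Other gene groups were read in the same way. Of all genes tested, 28.8% passed lower and 29.9% passed higher. All 12 genes of a cell cycle list passed higher in the libraries labelled KO, with a median log2 fold change of 0.84 and summed levels of 440 to 522 CPM in the group labelled WT and 765 to 878 in the group labelled KO. Of the 9 fibroblast markers tested, 6 passed lower and 1 higher. Dcn (-1.55 on the log2 scale), Col3a1 (-0.94), Pdgfra (-0.90) and Pdgfrb (-0.66) were called lower, and S100a4 (1.67) was called higher. Of 11 markers of pancreatic epithelium 4 were tested, with summed levels of 20.1 to 22.6 CPM against 43.7 to 45.3, and 3 of them passed higher. Of 10 adipocyte markers 4 were tested, at 61.3 to 62.5 CPM against 66.7 to 70.9, and 2 passed higher. Of 7 macrophage and leukocyte markers 4 were tested, at 55.6 to 60.8 CPM against 52.4 to 54.1, and 2 passed lower. Of 5 endothelial markers 0 were tested. Counts out of 4 genes are too few to be set against the shares of all genes. The part of these groups in the changes of the synthesis genes was not tested.

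Levels can be compared between genes only per length. On the scale of CPM per kilobase of annotated exons, Scd2, a stearoyl-CoA desaturase, was the highest member at 371 ± 14.99 in the libraries labelled WT and 317 ± 7.56 in the wells labelled KO (SD, n = 3 each). Fads1 at 122 ± 1.98, Insig1 at 116 ± 5.22 and Fads2 at 114 ± 5.38 followed in the group labelled WT, and neighbours among these 3 overlapped in their libraries. In the libraries labelled KO, Insig1 stood seventh by its mean, at 60.0 ± 1.74, behind Scd2, Fads2, Fads1, Acly, Scd1 and Srebf2. The libraries of Insig1 and Srebf2 overlapped on this scale, as did those of Fads2 and Fads1. Acss2 was the lowest member in both groups, at 0.971 ± 0.0888 and 0.497 ± 0.0510, and Fdps was next at 2.30 ± 0.192 and 2.18 ± 0.124. Exon lengths count every annotated exon, used or not, and include bases that overlap other genes, as for Fdps (below).

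**Figure D2:**
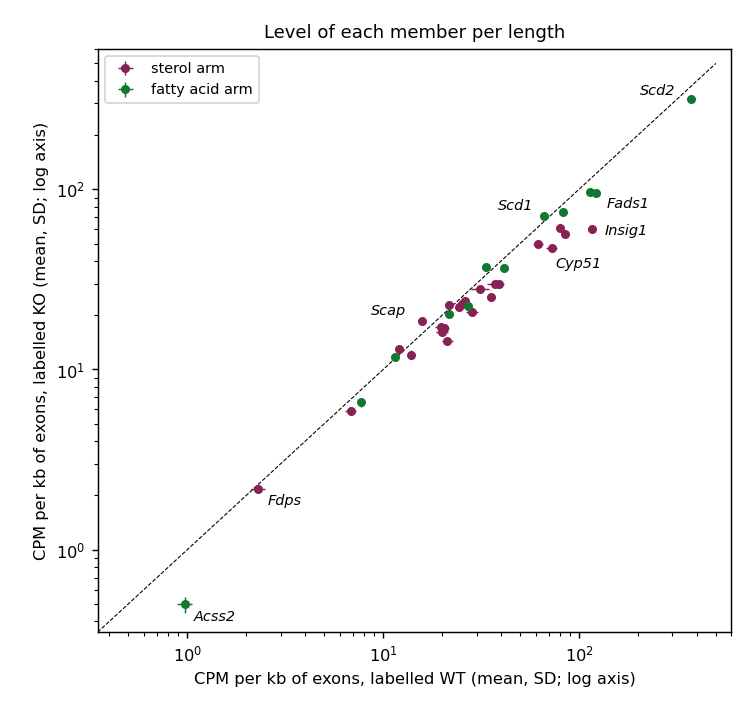
Level of each member per kilobase of exons in the libraries labelled WT (horizontal, log axis) and labelled KO (vertical, log axis), as mean and SD of 3 libraries, with a dashed line of equality. Most points lie just under the line, Insig1 and Acss2 lie furthest from it, and Scap and Scd1 lie above it.

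The first 7 sterol members lead from acetyl-CoA to farnesyl diphosphate, the branch point from which cells also make isoprenoids. All 7 had lower values in the group labelled KO, and 6 passed the test. Mvk, the mevalonate kinase (chr5:114444269-114460591, GENCODE M21 on GRCm38, as for all genes below), had 82.2, 74.9 and 71.3 CPM in the wells labelled WT, against 55.8, 56.5 and 54.3 in the wells labelled KO. Every library labelled KO was below every library labelled WT, and the log2 fold change was -0.45 ± 0.048 (SE; adjusted p = 4.12e-06 by edgeR). Acat2, the cytosolic acetoacetyl-CoA thiolase, fell by 0.32 on the log2 scale (adjusted p = 0.00043), and Hmgcs1, the HMG-CoA synthase whose promoter is printed above, by 0.31 (adjusted p = 1.69e-05). Idi1, which isomerizes isopentenyl diphosphate, fell by 0.25 and Pmvk, the next kinase after Mvk, by 0.20. Mvd, the decarboxylase, fell by 0.16 (adjusted p = 0.042), but its groups overlapped, at 54.1 to 65.4 CPM against 50.1 to 54.4, and it no longer passed without replicate 1 labelled WT, where it was -0.073 on the log2 scale (adjusted p = 0.18), or without replicate 2 or 3 labelled KO (0.10 and 0.095). Fdps, the farnesyl diphosphate synthase, did not pass, at 9.05 to 10.6 CPM in the wells labelled WT, against 8.57 to 9.54 in the wells labelled KO, with a log2 fold change of -0.083 ± 0.081 (SE; adjusted p = 0.40 by edgeR). Of its exon bases, 26.7% overlap Gm43738 on the same strand. How reads on such bases were counted is not given in the sources used here, so its level may be understated.

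Squalene synthesis and its closing into lanosterol are the first steps committed to sterols. All 3 genes of these steps fell. Sqle, the squalene epoxidase and a flux-controlling enzyme (chr15:59315077-59331192), had 484, 463 and 458 CPM in the wells labelled WT, against 315, 320 and 310 in the wells labelled KO. The gap between the groups was several times the spread within them, and the log2 fold change was -0.57 ± 0.031 (SE; adjusted p = 7.19e-09 by edgeR), just short of the 1.5-fold limit. Fdft1, the squalene synthase, fell by 0.50, at 143 to 157 CPM against 106 to 107, and Lss, which closes the sterol rings, by 0.27, at 212 to 236 against 180 to 185. Of the exon bases of Fdft1, 18.3% overlap Ctsb on the opposite strand. Ctsb itself had a log2 fold change of -0.098 at 741 and 692 CPM, and whether counting used strand is not given in the sources used here.

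Members of the last stage, from lanosterol to cholesterol, moved unevenly. Cyp51, the lanosterol demethylase that opens this stage (chr5:4081145-4104746), had 10764, 10471 and 9791 counts in the WT-labelled wells, against 7671, 8590 and 6745 in the KO-labelled ones, or 343, 313 and 307 CPM against 217, 206 and 204. All 3 libraries labelled KO lay well below the lowest library labelled WT. The log2 fold change was -0.62 ± 0.042 (SE; adjusted p = 7.45e-08 by edgeR), a level that fell by 34.9%. Its promoter, printed above, holds CCAAT 29 bases before the RefSeq start. The GENCODE start lies further upstream, so this CCAAT falls within the gene as GENCODE places it. The change passes the 1.5-fold limit narrowly: without replicate 1 labelled WT the value was -0.57 and the call was lost. Hsd17b7 (-0.57) and Nsdhl (-0.39), which act in removing methyl groups from the sterol, also fell, as did Dhcr7 (-0.21), the final reductase of the pathway, Ebp (-0.15), a sterol isomerase, and Msmo1 (-0.12), a methyl sterol oxidase. Tm7sf2, a sterol reductase that acts right after Cyp51, rose by 0.10, at 51.2 to 55.0 CPM against 55.4 to 59.3 (adjusted p = 0.045), but this did not pass when replicate 2 or 3 labelled WT or replicate 1 or 2 labelled KO was left out (adjusted p 0.051 to 0.198). Of its exon bases, 12.1% overlap Vps51 on the same strand. Sc5d, a sterol desaturase, had 103 to 109 CPM against 110 to 112 and did not pass, with a log2 fold change of 0.072 (adjusted p = 0.068), though it did without replicate 1 labelled WT (adjusted p = 0.030).

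Stard4, a carrier of cholesterol between membranes (chr18:33199355-33213862), had 121, 107 and 106 CPM in the wells labelled WT, against 90.8, 89.9 and 90.5 in the wells labelled KO. The group labelled KO was tightly grouped below the other, with a log2 fold change of -0.30 ± 0.045 (SE; adjusted p = 8.16e-05 by edgeR).

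**Figure D3:**
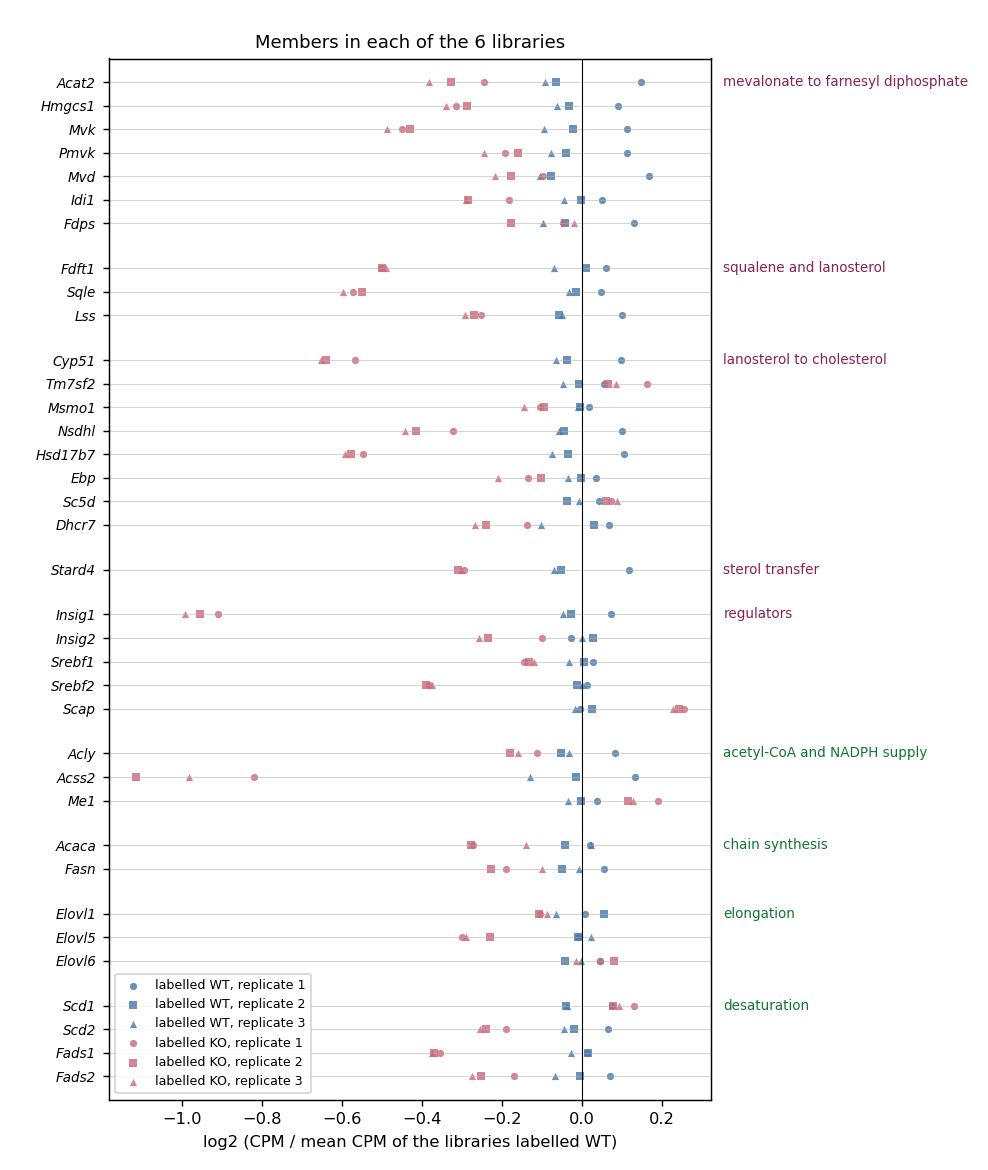
CPM of each member in each of the 6 libraries, as log2 of the ratio to the mean of the libraries labelled WT (horizontal axis), in the order of the pathway, with 1 marker shape per replicate number. Markers of the group labelled KO lie to the left for 30 of 36 members on average, and replicate 1 labelled WT is often the rightmost of its group.

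Among the 5 regulators, Insig1 had the largest change of the sterol arm. Insig1, which retains SCAP in the endoplasmic reticulum and is itself a target of SREBP (chr5:28071363-28078662), had 11831, 11793 and 11094 counts in the WT-labelled wells, against 6772, 7716 and 5959 in the KO-labelled ones, or 378, 352 and 348 CPM against 191, 185 and 181. The 2 groups were far apart compared with their spread. Its printed promoter holds CCAAT 216 bases and CACGTG 101 bases before the start. Its log2 fold change was -0.95 ± 0.037 (SE; adjusted p = 3.35e-10 by edgeR), a level that fell by 48.3%, and it was called under every alternative of the test and the scaling at the 1.5-fold limit. Its paralog Insig2, with the same role, fell by 0.20, at 47.3 to 49.1 CPM against 40.3 to 45.0.

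Srebf2, which encodes the SREBP of the sterol genes, had 569 to 580 CPM in the wells labelled WT, against 438 to 443 in the wells labelled KO, a log2 fold change of -0.38 ± 0.026 (SE; adjusted p = 8.05e-08 by edgeR). Srebf1 fell less, by 0.13 on the log2 scale, at 139 to 145 CPM against 128 to 131. Counts per gene do not separate the transcripts of Srebf1 that differ in their first exon. Scap moved the other way, at 117, 119 and 116 CPM in the wells labelled WT, against 140, 139 and 137 in the wells labelled KO, a log2 fold change of 0.24 ± 0.029 (SE; adjusted p = 1.51e-05 by edgeR). The groups did not overlap for any of these 3 genes, a pattern seen for 64.2% of all genes tested. Of the exon bases of Scap, 13.2% overlap 5830462I19Rik on the opposite strand.

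In the fatty acid arm, the genes that supply acetyl-CoA and NADPH moved in both directions. Acss2, which makes acetyl-CoA from acetate (chr2:155517948-155585724), had 339, 327 and 288 counts in the WT-labelled wells, against 198, 190 and 165 in the KO-labelled ones, or 10.8, 9.76 and 9.02 CPM against 5.59, 4.56 and 4.998. Its groups did not overlap, and its log2 fold change of -0.97 ± 0.099 (SE; adjusted p = 2.93e-06 by edgeR) was beside that of Insig1, from which it differed by less than its SE, at the lowest level per length of all members. The order of these 2 turned without replicate 1 labelled WT (-0.90 for Acss2 and -0.92 for Insig1) and without replicate 2 labelled KO (-0.90 and -0.95). Of its exon bases 9.12% overlap other genes on the opposite strand, among them Gss and Ggt7. Its printed promoter holds CCAAT 73 bases before the RefSeq start, at a site that falls within the gene as GENCODE places it. Acly, which makes acetyl-CoA from citrate at a far higher level, fell by 0.15, at 422 to 464 CPM against 387 to 405. Me1, the cytosolic malic enzyme that yields NADPH, rose by 0.14, at 126 to 132 CPM against 139 to 147.

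Chain synthesis itself was slightly lower. Acaca, the acetyl-CoA carboxylase of the cytosol (chr11:84129672-84401651), had 133, 128 and 134 CPM in the wells labelled WT, against 109, 109 and 119 in the wells labelled KO, a log2 fold change of -0.23 ± 0.040 (SE; adjusted p = 0.00031 by edgeR). Replicate 3 labelled KO lay nearer to the other group than its companions did. Fasn, the fatty acid synthase, fell by 0.17, at 437 to 470 CPM against 387 to 423. For both genes all 3 libraries labelled KO were below the lowest library labelled WT. Groups without overlap, in either direction, were seen for 64.2% of all genes tested.

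Elongases add carbons to finished fatty acids. Elovl5, which lengthens polyunsaturated chains (chr9:77917364-77984519), had 95.03, 95.06 and 97.1 CPM in the wells labelled WT, against 77.8, 81.7 and 78.3 in the wells labelled KO, a log2 fold change of -0.27 ± 0.033 (SE; adjusted p = 1.34e-05 by edgeR). The gap was wider than either spread. Elovl1, which acts on very long saturated chains, fell by 0.10 (adjusted p = 0.038), which held only in the fit without replicate 3 labelled WT of those that left out a library (adjusted p 0.051 to 0.167 in the rest). Elovl6, which acts on the product of FASN, did not pass at 71.6 to 76.0 CPM against 73.0 to 77.9, a log2 fold change of 0.038 (adjusted p = 0.40).

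Desaturases put double bonds into the chain. Fads1, which acts in making polyunsaturated fatty acids (chr19:10182888-10196877), had 594, 595 and 578 CPM in the wells labelled WT, against 461, 456 and 454 in the wells labelled KO, a log2 fold change of -0.37 ± 0.027 (SE; adjusted p = 1.63e-07 by edgeR). These groups were compact and far apart. Its neighbour in the genome and in the pathway, Fads2, fell by 0.23, at 357 to 393 CPM against 309 to 332. The stearoyl-CoA desaturases, which make monounsaturated fatty acids, split: Scd2 fell by 0.23, at 1965 to 2121 CPM against 1701 to 1779, while Scd1 rose by 0.10, at 317 to 343 CPM against 344 to 357 (adjusted p = 0.026). Few of their sequences are shared, since 3.15% of the 75-base stretches of Scd1 transcripts and 1.78% of those of Scd2 also occur in transcripts of other genes. The rise of Scd1 did not pass without replicate 2 or 3 labelled WT (adjusted p = 0.133 and 0.108) or without replicate 1 labelled KO (0.105).

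**Figure D4:**
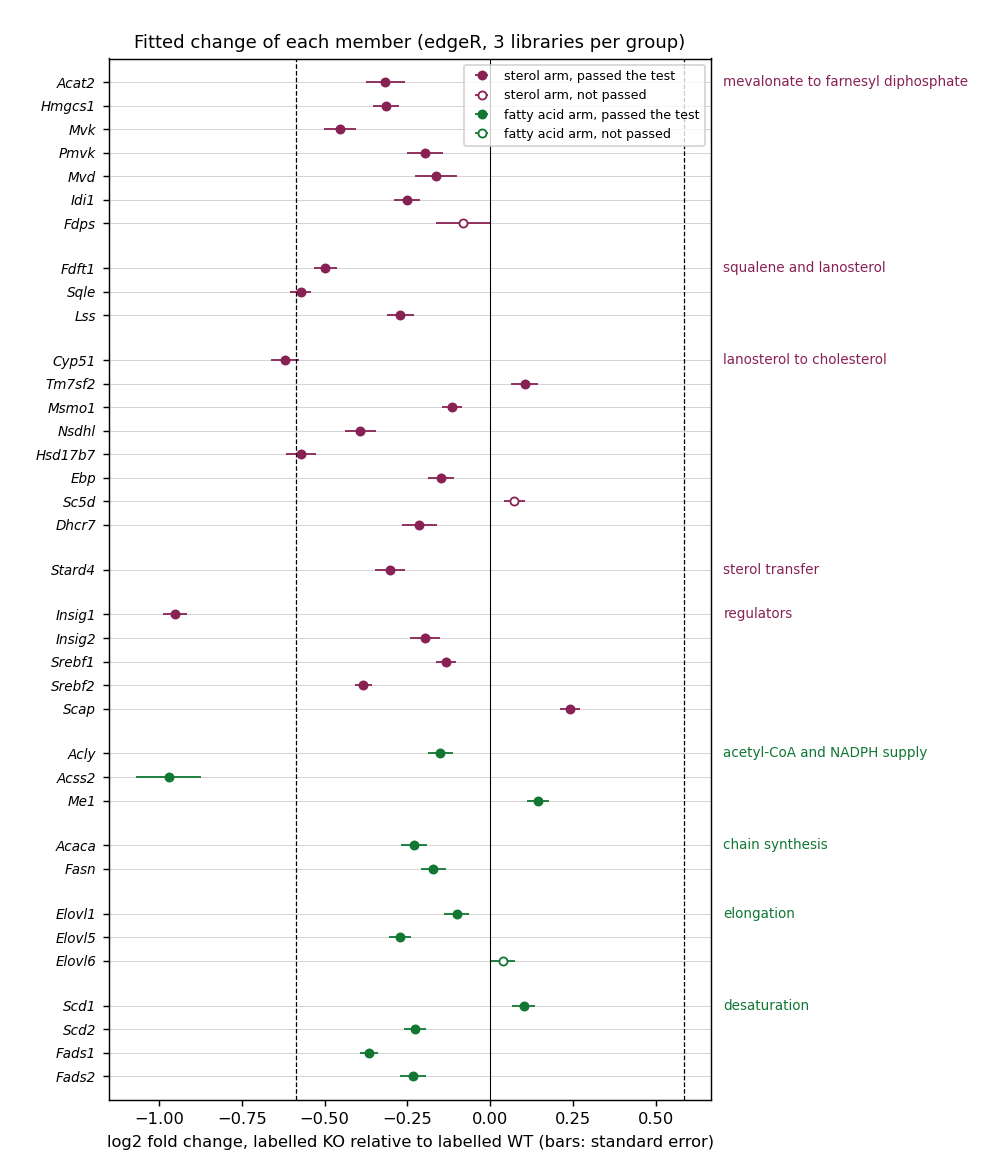
Log2 fold change of each member, labelled KO relative to labelled WT, with its standard error as a bar, from edgeR on 3 libraries per group. Filled points passed an adjusted p under 0.05, and dashed lines mark a 1.5-fold change: Insig1, Cyp51 and Acss2 lie beyond the lower line, Sqle and Hsd17b7 lie beside it, and Scap is the highest point.

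Shared sequence limits the precision for some members. For 6 members a large share of the 75-base stretches of their transcripts, the measure used here, also occurs in transcripts of other genes: 33.9% for Acat2, 26.8% for Acaca, 23.6% for Idi1, 23.5% for Fdps, 21.8% for Fdft1 and 20.005% for Me1. The partners include processed pseudogenes, and Acat2 shares its stretches with Acat3 and Tcp1. How reads that match several genes were counted is not given in the sources used here, so the values of these 6 genes are less certain than the rest. Insig1, at 0.762%, and Sqle, Stard4 and Fads1, with none, are hardly touched.

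The wells of a group were not equally deep in these transcripts. Replicate 1 labelled WT was above the mean of its group, in log2 CPM, for 22 of the 24 sterol members and for 11 of the 12 fatty acid members, with median deviations of 0.071 and 0.051. For the 18 sterol enzymes and Stard4 together it was above for 19 of 19, with a median deviation of 0.10, and replicate 3 labelled WT was above for 0 of 19, with a median deviation of -0.064. Over all genes tested, replicate 1 labelled WT was above the mean of its group for 51.1%. Replicate 1 labelled KO was above for 20 of the 24 sterol members, with a median deviation of 0.017. These differences between wells are smaller than the sterol arm's median difference between the groups. Without replicate 1 labelled WT, 27 members passed lower and 2 were called.

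**Figure D5:**
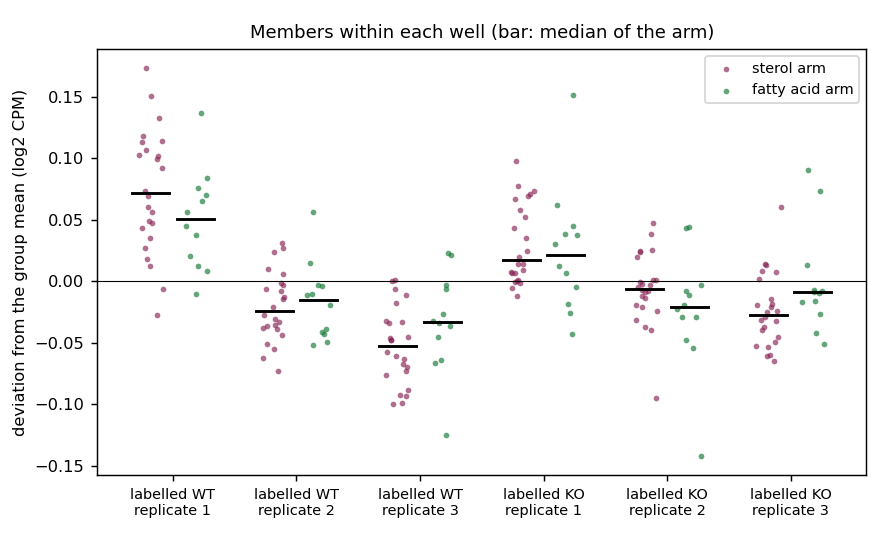
Deviation of each member from the mean of its group in log2 CPM (vertical axis) in each of the 6 wells, with sterol and fatty acid members side by side and a black bar for the median of an arm. Replicate 1 labelled WT sits above 0 for nearly all members of both arms, and the medians of both arms in the group labelled KO lie nearer to 0.

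The other genes of the pathway were read from 4 lists, of which 58 of 64 genes were tested. Of these, 24 passed lower (41.4%) and 15 passed higher (25.9%), with a median log2 fold change of -0.040. Among all genes tested 28.8% passed lower and 29.9% higher, and 6.1% were called lower and 11.6% higher. Of the 12 genes that process SREBP or mediate sterol-regulated protein turnover, 6 passed higher, 4 lower and none was called. Of 11 genes of the isoprenoid branches that leave farnesyl diphosphate, 2 passed higher (18.2%), 3 lower (27.3%) and none was called, so neither share was above that of all genes. Of 15 tested genes of cholesterol uptake, trafficking, storage, efflux and oxysterols, 4 passed higher (26.7%) and 8 lower (53.3%). Mylip, a ubiquitin ligase for lipoprotein receptors and a target of liver X receptors, went from 103 ± 2.21 to 27.4 ± 0.881 CPM (SD, n = 3 each) with a log2 fold change of -1.91, and Nr1h3, which encodes a liver X receptor, from 2.76 ± 0.200 to 1.42 ± 0.0682. Cyp27a1, a sterol hydroxylase, rose from 1.22 ± 0.192 to 5.18 ± 0.537 CPM and Nceh1, a cholesteryl ester hydrolase, from 15.5 ± 0.484 to 23.5 ± 0.370. The remaining call, named after its values were seen, was Scarb1, a lipoprotein receptor, at 63.6 ± 4.18 and 36.1 ± 1.88 CPM.

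Of 20 tested genes from the list of other fatty acid synthesis, elongation, desaturation and activation, 9 passed lower and 3 higher. Acacb, the mitochondrial counterpart of Acaca, fell from 6.52 ± 0.271 to 3.09 ± 0.282 CPM, a log2 fold change of -1.07. Aacs, which makes acetoacetyl-CoA for lipid synthesis, fell from 157 ± 8.30 to 94.7 ± 1.85 CPM, a log2 fold change of -0.73. Elovl7 rose from 1.83 ± 0.340 to 4.38 ± 0.585 CPM, a log2 fold change of 1.26.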

How the data were processed

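The authors deposited 2 tables: raw counts of reads per gene, and log2 CPM from the voom step of limma, in which 0.5 is added to each count before scaling by a library's effective size. The submitters' processing notes list STAR 2.7.2b, featureCounts and limma on GRCm38.p6. RNA was selected by its poly-A tail, and the strand setting of counting is not given in the sources used here.

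The test was that of edgeR 4.0.16, run in R 4.3.3 (TMM, filterByExpr, quasi-likelihood F test, Benjamini-Hochberg adjustment), which left 14289 of 14831 genes. A standard error is the size of the log2 fold change divided by the square root of F. Alternatives used DESeq2 1.42.0, limma 3.58.1, other scalings, filters and fold limits, and each library left out in turn. Groups came from the sample labels alone. Replicate numbers were given here by the order of the labels within a group, and equal numbers across the groups do not mark a pair. Libraries within a group differed by more than sampling noise (chi-square per degree of freedom 2.51 to 7.74). For a single gene the smallest two-sided p of an exact permutation test of 3 libraries against 3 is 0.1. The fitting step was tested on simulated data.

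Every member is named. Values in every library are given for called members and, where a role group has none, for its member with the smallest adjusted p, and from each list of other genes up to 2 called genes in each direction. The members and lists were chosen with earlier results of these data known. Positions are from GENCODE M21 and promoters from RefSeq.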

Additional observations from a re-analysis of the deposited data

How the results depend on the processing

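Each of the 36 members kept its direction under all 14 refits, with 30 lower and 6 higher, and 24 members passed lower in every one of them. Between 24 and 29 members passed lower and between 2 and 6 passed higher, and Insig1 and Acss2 were called lower in every refit. Mvd, Elovl1, Msmo1, Ebp and Acly passed lower, and Tm7sf2 and Scd1 higher, in some of the refits only, and Sc5d and Elovl6 passed higher in some. The number of sterol members called lower, 2 as reported, was 1 under upper-quartile scaling, 1 under total-count scaling, and 1 to 4 when a library was left out: Cyp51 was lost without replicate 1 labelled WT, Hsd17b7 was added without replicate 2 labelled WT and without replicate 1 labelled KO, Sqle without replicate 2 labelled KO, and both without replicate 3 labelled WT. With no fold limit 2 sterol members were called higher and 20 lower, 2 fatty acid members higher and 9 lower, and 4277 of all genes higher and 4114 lower. With a fold limit of 2, 0 sterol and 0 fatty acid members were called lower, against 1052 of all genes higher and 404 lower. Under upper-quartile scaling the median log2 fold change was -0.204 for the sterol arm, -0.143 for the fatty acid arm and 0.0588 for all genes. The median of all genes was 0.0367 under total-count scaling and -0.000332 by limma on the deposited log2 values, and ranged from -0.00129 to 0.00532 when a library was left out. Why these values moved was not tested, except that a fold limit acts by its construction. No paired analysis was possible because the labels carry no replicate numbers shared between the groups. A difference of under 1.5-fold with 3 wells per group rests on the spread between wells.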

Other observations

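Replicate 1 labelled WT, which stood above its group mean for nearly all synthesis genes, also stood above it for 12 of the 12 genes of the cell cycle list, with a median deviation of 0.17 in log2 CPM, and replicate 1 labelled KO did so for 12 of 12, with a median deviation of 0.085. Replicate 2 labelled KO was above its group mean for 12 of the 12 cell cycle genes but for 8 of the 24 sterol members. Between the groups the lists moved in opposite directions, with median log2 fold changes of 0.84 for the cell cycle list and -0.26 for the sterol arm. These are descriptions of 6 wells, and no relation between the lists was tested.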
